A study of Mus musculus with 4 samples.

Results

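Apolipoproteins are the protein parts of lipoproteins, and 10 of their genes (Apoa1, Apoa2, Apoa4, Apoa5, Apob, Apoc1, Apoc3, Apoe, Apoh and Apom) were followed here in mouse liver and spleen. The members were taken by name: every array oligo that is not a control and carries one of these gene names in the scanner files. This gave 10 genes of 27670 gene labels on the array, measured by 16 of 41174 oligos and 34 of 43379 spots, and each gene is reported by its brightest oligo unless stated. All 10 were measured in both tissues. A gene counts as measured in a tissue when each of its arrays has a channel well above background for it.

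The mice were male C57BL/6J, 13 weeks old, fed for 4 weeks on a purified diet. The control pools had that diet as it is, low in nucleoprotein (low NP), with 0.03% nucleic acids. The treated pools had it with 1.2% nucleoprotein added (NP), with 0.5% nucleic acids. The RNA of each diet and tissue was a pool of mice, whose number the sources used here do not give. Each tissue was hybridised on 2 arrays with 2 colours, on 1 slide: NP was labelled with Cy5 and low NP with Cy3 on array 1, and the other way round on array 2. The second array of a tissue was taken to repeat the pools of the first with the dyes exchanged. With that there is 1 replicate of each diet in each tissue, the diets could not be compared by a test, and p-values are absent below. Whether the pools numbered 1 and 2 in the labels were separate pools is unclear, because the numbers change together with the dyes. Ratios are log2 values of NP over low NP, opposite in direction to the deposited value table. Behind ± stands how far either array lay from their mean (n = 2 arrays). It covers technical error, and variation among pools too where the arrays did not share pools. The word called is kept for genes that passed 1.5-fold on both arrays with the same sign.

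Apolipoproteins wrap lipids into particles that travel in plasma and direct those particles to enzymes and receptors. Apolipoprotein B is the scaffold of very low density and low density lipoproteins, A-I and A-II form the core of high density lipoproteins, and the C proteins, A-V and E exchange between particles. Hepatocytes make most of them, the intestine shares Apob, Apoa1 and Apoa4, and Apoe is also made by macrophages, which the spleen holds. In the RefSeq gene table of GRCm38.p6, Apoa1, Apoc3, Apoa4 and Apoa5 are neighbours of each other, and so are Apoc1 and Apoe.

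The oligos are 60 bases long. Positions are 1-based in mm7, as in the array files, and the annotation of exons in that build was not used here. The Apob oligos are shown because they lie at 5 places along the transcript and did not give the same ratio in liver. They are in order from 5′ to 3′, and the coordinates of the first span more genome than its own length. Oligos 4 and 5 abut each other at the 3′ side.

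Apob oligo 1, + strand, chr12:7954595-7956804: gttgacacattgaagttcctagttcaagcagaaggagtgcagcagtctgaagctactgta
Apob oligo 2, + strand, chr12:7963823-7963882: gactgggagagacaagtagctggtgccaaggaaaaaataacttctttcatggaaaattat
Apob oligo 3, + strand, chr12:7967854-7967913: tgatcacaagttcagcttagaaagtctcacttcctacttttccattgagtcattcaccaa
Apob oligo 4, + strand, chr12:7972247-7972306: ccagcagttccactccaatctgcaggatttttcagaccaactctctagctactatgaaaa
Apob oligo 5, + strand, chr12:7972307-7972366: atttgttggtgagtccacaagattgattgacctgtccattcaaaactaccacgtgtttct

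The Apoa1 and Apoe oligos are shown because each is spotted 10 times per array, which gives the error of a single spot. The Apoc3 oligos are shown because they overlap, and the capitals mark the 50 bases that they share.

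Apoa1 oligo, + strand, chr9:46187961-46188020: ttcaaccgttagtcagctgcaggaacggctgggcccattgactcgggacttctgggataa
Apoe oligo, - strand, chr7:17378757-17378816: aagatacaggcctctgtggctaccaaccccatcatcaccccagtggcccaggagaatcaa
Apoc3 oligo, brighter, - strand, chr9:46191393-46191452: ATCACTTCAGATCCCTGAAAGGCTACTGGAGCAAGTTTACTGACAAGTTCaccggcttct
Apoc3 oligo, dimmer, - strand, chr9:46191403-46191462: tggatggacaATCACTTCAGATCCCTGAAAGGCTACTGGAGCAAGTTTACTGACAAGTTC

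The share of oligos well above background ran from 58.6% to 94.7% over the channels and was highest on spleen array 1. The median raw signal of the 153 negative-control spots was 156 in Cy3 and 307 in Cy5 on that array, and between 62.7 and 74.0 on the others. The scanner saturated in Cy5 on each array (6 to 9 oligos) and in Cy3 on none. Among the members, the Apoc1 spot and all 10 Apoe spots were saturated in Cy5 on both liver arrays, which is the NP channel of array 1 and the low-NP channel of array 2. The number of arrays limits the precision.

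In the spleen comparison, all 10 apolipoprotein genes were lower in NP spleen than in low-NP spleen on both arrays. Of 18416 measured genes, 6.34% were called lower. The members' median ratio was -5.15, against -0.02 over all measured genes, and the members ranged from -7.67 for Apoh to -1.29 for Apoa4. In every member the 2 low-NP channels lay above the 2 NP channels. In all of them the ratio was also less negative on array 1, the array with the brighter negative controls, than on array 2. The part of that background in the size of the ratios was not tested.

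Among the genes of high density lipoprotein, Apoa1 encodes the main protein of these particles and the activator of cholesterol esterification in plasma. Its normalized log2 signal was 15.54 in Cy3 and 15.42 in Cy5 in low-NP spleen, and 9.76 in Cy3 and 10.62 in Cy5 in NP spleen. The low-NP channels stood far above the NP channels and differed little between dyes. The ratio was -4.92 on array 1 and -5.66 on array 2 (-5.29 ± 0.37), which is 39.2-fold lower with NP. Apoa2, which encodes the other core protein of the same particles, had log2 signals of 16.71 and 16.45 in low-NP spleen and of 10.79 and 12.11 in NP spleen, in Cy3 and Cy5. Its ratios of -4.60 and -5.66 averaged -5.13 ± 0.53, or 35.0-fold lower. Apom, which encodes a minor protein of these particles that carries a signalling sphingolipid, had 13.34 and 13.52 in low-NP spleen against 8.65 and 9.63 in NP spleen. It was 19.5-fold lower (-3.71 and -4.87, mean -4.29 ± 0.58). The array ranges of Apoa1 and Apoa2 overlapped, and that of Apom overlapped with Apoa2 but not with Apoa1.

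Apob, the scaffold of the particles that carry triglyceride out of the liver, was 67.6-fold lower in NP spleen by its brightest oligo, number 4 above. That oligo had log2 signals of 13.85 in Cy3 and 14.08 in Cy5 in low-NP spleen, and of 7.49 and 8.29 in NP spleen. The ratios were -5.57 and -6.59 (-6.08 ± 0.51), and both NP channels were still well above background. On array 2, however, the raw NP signal was 127, against a negative-control median of 62.7. Processed signals gave -7.42 on that array, so the size of the fold rests on a weak NP signal. The abutting oligo 5 gave -5.94 ± 0.45. Oligos 1 and 2 were called lower as well, with smaller ratios of -1.99 ± 0.79 and -3.44 ± 1.54, although oligo 1 was not well above background in NP spleen on array 2. Oligo 3 was not well above background in NP spleen on either array, and its ratios were -1.29 and -2.02. By the mean of the arrays, not by each array, it was at least 3.14-fold lower. Such a bound sets the low-NP mean against the higher of the oligo's own NP signal and the weakest signal well above background on that array, and here it rests on the oligo's own signal (ratio -1.65).

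The exchangeable proteins that act on plasma triglyceride came next. Apoc3, which encodes an inhibitor of triglyceride clearance, had log2 signals of 14.29 and 14.44 in low-NP spleen and of 9.96 and 10.54 in NP spleen, in Cy3 and Cy5. It was 17.3-fold lower (-3.75 and -4.47, mean -4.11 ± 0.36), and the overlapping second oligo gave -4.10 ± 0.37. Apoa5, which encodes a protein that promotes triglyceride clearance, had 14.47 and 14.62 in low-NP spleen against 8.79 and 9.96 in NP spleen. Its ratios of -4.50 and -5.83 averaged -5.17 ± 0.66, 35.9-fold lower, and its dimmer oligo gave -3.43 ± 0.56. The oligos of Apoa5 were thus called alike but did not give the same size, and their array ranges did not overlap.

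Apoc1 encodes a small protein found on several particle classes. It had log2 signals of 18.37 and 17.99 in low-NP spleen and of 11.59 and 13.44 in NP spleen, with no saturated spleen spot. The ratios were -4.93 and -6.40 (-5.66 ± 0.74), 50.6-fold lower. Apoa4, which encodes a protein made in the gut and to a lesser degree in liver, had the ratio closest to 0. Its log2 signals were 9.03 and 9.32 in low-NP spleen and 7.34 and 8.42 in NP spleen, and the lowest of these was not well above background. The ratio was -0.61 on array 1, just past 1.5-fold, and -1.98 on array 2 (-1.29 ± 0.68, 2.45-fold). Apoa4 was the 1 member whose call was lost under other scalings: array 1 gave -0.54 without background correction and -0.51 with median centring. With the scanner software's processed signals its mean was -2.36, with -0.67 and -4.05 on the arrays.

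Apoe, which encodes the ligand that brings remnant particles to their receptors, lay next to Apoa4, and with processed signals (-2.06) it was closer to 0 than Apoa4. It had log2 signals of 18.16 and 18.05 in low-NP spleen and of 15.55 and 16.62 in NP spleen, in Cy3 and Cy5. It was 4.06-fold lower (-1.54 and -2.50, mean -2.02 ± 0.48). The spots of 1 array agreed closely: the SD over 8 spots was 0.03 on array 1 and 0.02 on array 2, against a difference between the arrays many times larger. Apoh, which encodes a plasma glycoprotein that binds phospholipids, was at the other end. It had 16.12 and 16.03 in low-NP spleen against 7.88 and 8.93 in NP spleen, all well above background. Its ratios of -7.19 and -8.15 averaged -7.67 ± 0.48, or 204-fold lower. The raw NP signal on array 2 was 161, so the size of this fold also rests on a weak signal. Processed signals gave -8.69 on that array. The array ranges of Apoe and Apoh did not overlap with those of most other members: Apoe overlapped with Apoa4 alone, and Apoh with none.

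**Figure D1:**
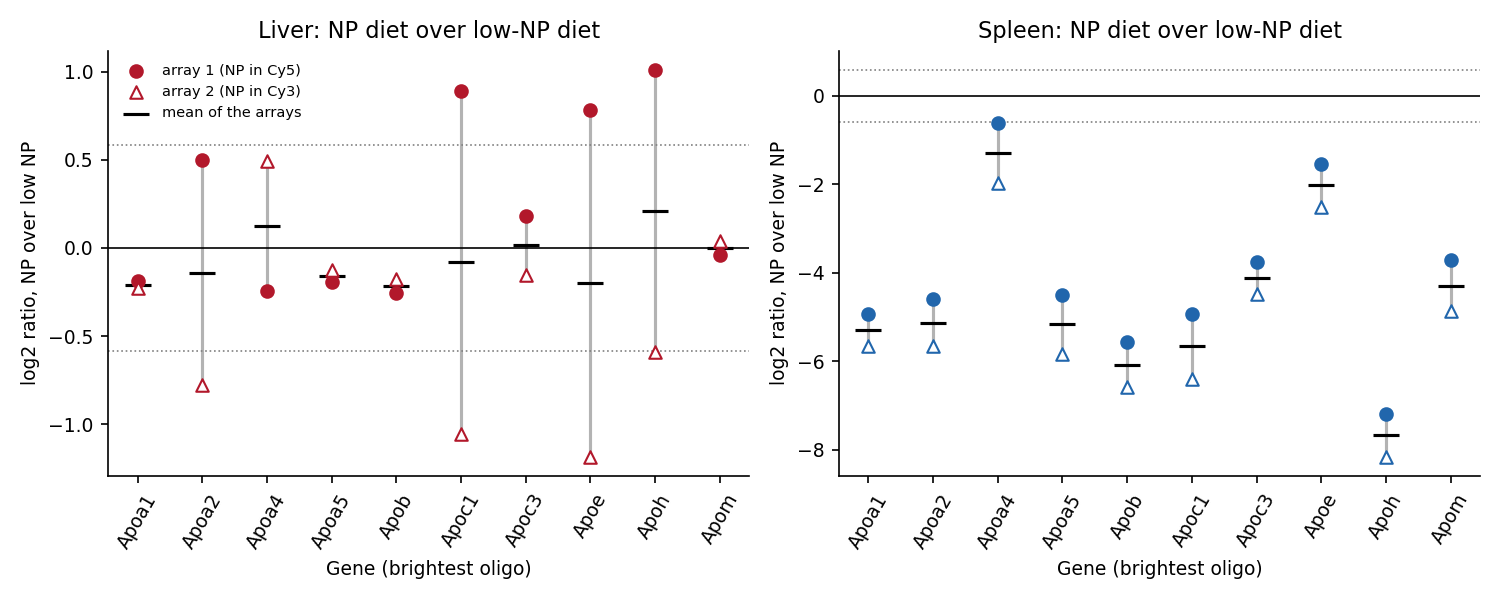
Log2 ratio of NP over low NP for the 10 apolipoprotein genes in liver (left) and spleen (right), with a filled circle for array 1, an open triangle for array 2 and a bar for their mean. Dotted lines mark 1.5-fold. The liver points lie on both sides of 0 and reach 1.01 and -1.18, while all spleen points lie below 0, from -0.61 to -8.15.

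In liver none of the 10 apolipoprotein genes was called. Among 16997 genes measured in liver, 12 passed as higher and 620 as lower, which is 3.72% in either direction. The members' means ran from -0.22 (Apob) to 0.21 (Apoh), and their median was -0.11, against 0.00 over all genes. Here 3 of 10 members lay above 0. With the scanner software's processed signals 5 of 10 did (median 0.00, against 0.11 over all genes). With median centring 10 of 10 did (median 0.28, against 0.06 over all genes). The members' median thus stayed below that of all genes with processed signals but lay above it with median centring. No direction is therefore given for the group in liver. The members fell into 3 patterns: slightly negative on both arrays, close to 0, or opposite on the 2 arrays.

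Apoa1, Apoa5 and Apob, each by its brightest oligo, had small negative ratios on both arrays. With processed signals array 2 lay above 0 for all 3 (0.20, 0.20 and 0.08), so this sign was not kept. Apoa1 had log2 signals of 16.81 in Cy3 and 16.96 in Cy5 in NP liver, and of 17.15 and 17.04 in low-NP liver. Its ratios were -0.19 and -0.23 (-0.21 ± 0.02), with an SD of 0.08 over 10 spots on array 1 and of 0.05 over 8 spots on array 2. The NP channels thus lay below the low-NP channels by more than the spread between arrays, but by less than 1.5-fold, and with median centring the mean was 0.21. Apoa5 had 16.40 and 16.45 in NP liver against 16.64 and 16.53 in low-NP liver, for ratios of -0.19 and -0.13 (-0.16 ± 0.03). Its other oligo gave -0.33 and 0.29, so the 2 oligos of Apoa5 did not share this direction on array 2, and median centring gave 0.24 for the brighter one.

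Apoc3 and Apom lay near 0. Apoc3 had log2 signals of 16.18 and 16.32 in NP liver and of 16.14 and 16.34 in low-NP liver, in Cy3 and Cy5. Its ratios were 0.18 and -0.15 (0.01 ± 0.17), and its overlapping oligo gave 0.14 and -0.14. Apom had 15.60 and 15.54 in NP liver and 15.58 and 15.56 in low-NP liver, the closest agreement of the group, with ratios of -0.04 and 0.04. The NP and low-NP channels of both genes overlapped. Apoa4 had 11.36 and 11.13 in NP liver and 11.38 and 10.86 in low-NP liver, with ratios of -0.25 and 0.49 (0.12 ± 0.37), and its pools overlapped too.

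Apoa2, Apoc1, Apoe and Apoh followed the dye: whichever pool carried Cy5 had the higher signal in liver. Their ratios on array 1 and array 2 were 0.50 and -0.78 for Apoa2, 0.89 and -1.05 for Apoc1, 0.78 and -1.18 for Apoe, and 1.01 and -0.59 for Apoh. The means were -0.14 ± 0.64, -0.08 ± 0.97, -0.20 ± 0.98 and 0.21 ± 0.80, so in each the arrays differed by more than the mean, and no direction can be read. Raw Cy5 signals were between 333793 and 632683 for these 4 genes on the liver arrays, while their raw Cy3 signals were between 43061 and 94974.

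The raw Cy3 range was narrower than the Cy5 range for bright oligos, and it was widest on spleen array 1. The highest raw Cy3 signal was 482822 on that array, in the low-NP channel. It was 123011 and 172257 on the liver arrays and 136663 on spleen array 2. Over the whole array, 6 and 7 oligos exceeded a raw signal of 100000 in Cy3 on the liver arrays, against 319 and 386 in Cy5. On the spleen arrays 40 and 10 did in Cy3, against 327 and 369 in Cy5. NP was also compared with low NP between the arrays within 1 dye. The normalized signal of each channel draws on both dyes of its array, and the within-dye ratios average to the means above. These ratios therefore split the same values another way and are no check free of dye or saturation. Within Cy3, which had no saturated spot itself, Apoe was -0.29, Apoc1 -0.04, Apoa2 -0.24 and Apoh 0.47. Within Cy5 they were -0.11, -0.12, -0.04 and -0.06, of which Apoe and Apoc1 rest on saturated spots. All 4 were thus within 1.5-fold in each dye, with Apoh on both sides of 0. How far the narrow Cy3 range entered the ratios of these genes was not tested.

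**Figure D2:**
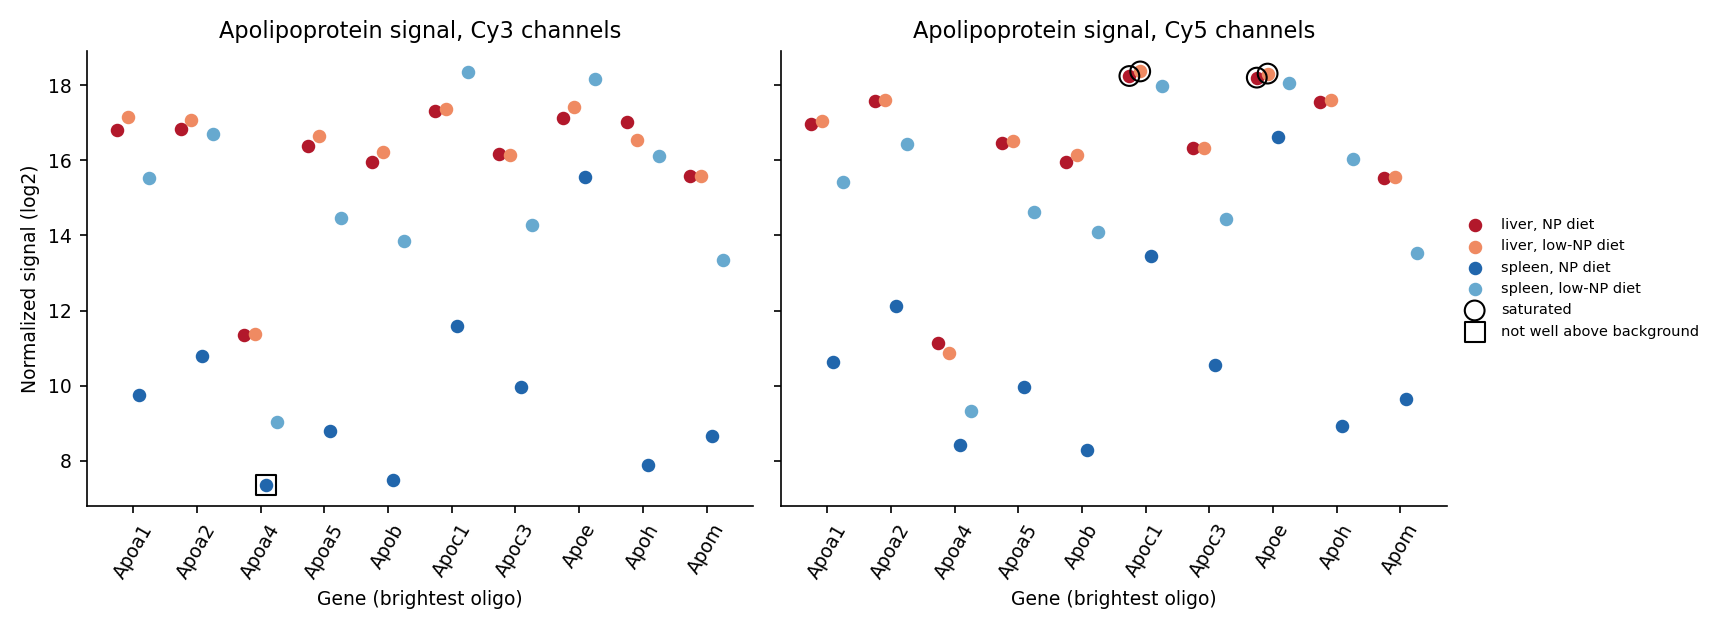
Normalized log2 signal of each gene in the Cy3 channels (left) and Cy5 channels (right), coloured by tissue and diet, with circles around saturated channels and a square around the 1 channel not well above background. The NP spleen points are lowest for every gene in both dyes, and the low-NP spleen points of Apoc1 and Apoe lie above both liver points in Cy3 and below them in Cy5.

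Set between tissues within the same dye, all 10 members were higher in liver than in spleen in the NP pools, where 20.6% of 18592 measured genes were. The liver excess had a median of 6.22 on the log2 scale. In this comparison ± gives how far either dye lay from the mean of both dyes. Apoh had 9.15 in Cy3 and 8.63 in Cy5 (8.89 ± 0.26, 474-fold), Apob 8.48 and 7.68 (8.08 ± 0.40, 270-fold), and Apoa5 7.61 and 6.49 (7.05 ± 0.56, 132-fold). Apoa1 followed at 6.70 ± 0.36, Apom at 6.43 ± 0.51, Apoc3 at 6.00 ± 0.22, Apoa2 at 5.76 ± 0.29, Apoc1 at 5.27 ± 0.46 and Apoa4 at 3.36 ± 0.65. Apoe stood last, with 1.58 and 1.59, and its Cy5 value rests on saturated liver spots, as does that of Apoc1. In this order, each neighbour from Apoa5 down to Apoc1 overlapped with the next within the ±. Apoh and Apob, Apob and Apoa5, Apoc1 and Apoa4, and Apoa4 and Apoe did not overlap.

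With low NP the tissues were closer to each other. Here 6 of 10 members were at least 1.5-fold higher in liver in both dyes, against 14.4% of 19025 measured genes, and the median excess was 1.75. Apob had 2.37 in Cy3 and 2.06 in Cy5 (4.64-fold), Apom 2.24 and 2.03, Apoa5 2.18 and 1.91, Apoa4 2.35 and 1.54, Apoc3 1.85 and 1.90, and Apoa1 1.61 and 1.62 (3.06-fold). These 6 kept a liver excess with each dye. Apoa2 (0.38 and 1.18) and Apoh (0.43 and 1.58) passed in Cy5 but not in Cy3. Apoc1 (-1.01 and 0.39) and Apoe (-0.74 and 0.26) were on opposite sides of 0 in the dyes, so low-NP spleen cannot be ranked against low-NP liver for these genes. All Cy3 differences with low NP set spleen array 1, with its wider raw Cy3 range, against liver array 1. The part of that range in the differences was not tested.

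The same signals were expressed as a share, which is the low-NP spleen signal above NP spleen as a percent of the NP liver signal above NP spleen, on a linear scale. Over the 8 members with no saturated channel the median share was 26.2%. Apoa4 had 14.7% in Cy3 and 15.6% in Cy5, Apom 20.2% and 23.4%, Apob 22.9% and 26.7%, Apoc3 25.9% and 25.7%, Apoa5 25.8% and 27.3%, and Apoa1 41.0% and 33.5%. Of these 6 genes Apoa1 differed most between dyes, and Apom, Apob, Apoc3 and Apoa5 lay close together. Apoh, at 53.2% and 34.5%, and Apoa2, at 90.9% and 44.2%, differed more between the dyes, with the higher value in Cy3. Apoc1 (209% and 82.6%) and Apoe (256% and 84.7%) exceeded the liver signal in Cy3 and had saturated liver spots in Cy5, so their shares are not read further.

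**Figure D3:**
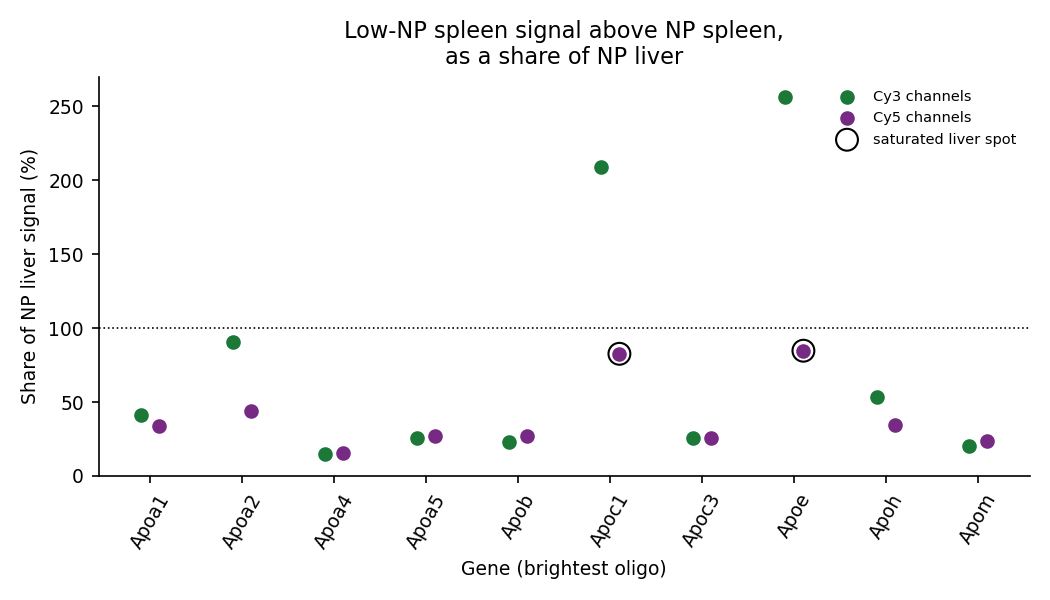
Share of the NP liver signal found in low-NP spleen above NP spleen, in percent, for each gene in Cy3 (green) and Cy5 (purple), with circles where the liver spot was saturated and a dotted line where the share would equal the liver signal. The 7 genes other than Apoa2, Apoc1 and Apoe lie between 14.7% and 53.2% in both dyes, and Apoc1 and Apoe reach 209% and 256% in Cy3.

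The apolipoprotein pattern was set beside markers of the cell types that the tissues could hold. All 18 of 18 hepatocyte markers, among them Alb, Ttr and Cps1, were called lower in NP spleen, against 6.34% of all measured genes. The median ratio of these markers was -5.09, and 0 of 18 were called in liver, against 3.72% of all measured genes. Their summed log2 signal was 14.57 to 16.25 in NP spleen and 20.58 to 20.98 in low-NP spleen, against 20.57 to 21.28 in the liver pools. The brightest markers weigh most in this sum, and saturated spots were not left out, so it is no measure of equal amounts. The median share in low-NP spleen was 25.8%, with a range of 7.63% to 152%. It covers the 15 markers with no saturated channel that were at least 16-fold higher in NP liver than in NP spleen in both dyes. The source of the hepatocyte marker RNA in the spleen pools, and its part in the apolipoprotein result, were not tested. Differences in cell number, in RNA per cell and in what tissue went into a pool cannot be told apart here.

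Other markers moved as well, and their counts stand beside these shares. Of 18416 genes measured in spleen, 6.34% were called lower and 8 genes higher. Of 16997 genes measured in liver, 620 were called lower. All 13 exocrine pancreas markers were called lower in NP spleen (median -2.17) and in NP liver (median -0.99). Of 6 measured intestinal markers, 2 were called lower in spleen, with a summed log2 signal of 11.49 to 11.89 in NP spleen and 13.69 to 13.98 in low-NP spleen. Of 14 macrophage markers, 2 were called lower in spleen (median 0.12) and 4 in liver, while their summed signal in spleen was 18.40 to 18.56 with NP and 18.35 to 18.40 with low NP. B cell markers (8 of 10) and T cell markers (7 of 10) were called lower in NP liver and none of them in spleen. Of 9 measured erythroid markers, 3 were called higher in NP spleen (median 0.60), with a summed log2 signal of 18.11 to 18.60 with NP and 17.70 to 18.25 with low NP, and 2 of 7 were called lower in NP liver. Of 11 hepatic stellate and endothelial markers, 1 was called lower in each tissue. Adipocyte markers were called in neither tissue (0 of 8). The part of these cell types in the apolipoprotein values was not tested.

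The rest of the lipoprotein pathway was described from 4 lists with 74 genes on the array. In liver 0 of 69 measured genes were called, against 3.72% of all measured genes. In spleen 31 of 72 were called lower and 0 higher, with a median ratio of -0.57. Over all genes measured in spleen, 6.34% were called lower, and the counts per list below stand beside that share. Among other apolipoproteins and their partners, 8 of 15 were lower: the paraoxonase Pon1 (-6.02 ± 0.57), Apof (-5.53 ± 0.60), Apoc4 (-5.15 ± 0.48), Apon (-4.30 ± 0.74), Apol7a (-3.88 ± 0.88), Apoc2, the activator of lipoprotein lipase (-2.65 ± 0.51), Apol9b (-2.21 ± 0.40) and Apoo (-0.63 ± 0.01). Apol8 was 0.65 ± 0.08 and not called, and Clu was -0.40 ± 0.10.

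Of 18 measured genes of assembly and remodelling in plasma, 9 were lower in NP spleen. They included A1cf, a cofactor of Apob mRNA editing, which was not well above background in NP spleen on either array (-3.16 and -3.69). By the mean of the arrays A1cf was at least 9.79-fold lower. Lcat, the enzyme of cholesterol esterification (-2.33 ± 0.35), and Mttp, which loads lipid onto apolipoprotein B (-1.87 ± 0.80), were included too. Cideb (-0.65 and -2.35 on the arrays) was called too, as were Lipc, Sar1b, P4hb and Angptl4 at -1.26 to -0.86. Of 20 receptors and efflux genes, 3 were lower, among them Lsr (-2.61 ± 0.05) and Sdc1 (-1.01 ± 0.02), while Scarb1 (-0.34 ± 0.11) and Abca1 (-0.23 ± 0.19) were not called.

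Of 19 measured regulators of apolipoprotein genes, 11 were lower in NP spleen. Foxa2 (-3.84 ± 0.45), the bile acid receptor gene Nr1h4 (-3.58 ± 0.74), Mlxipl (-3.20 ± 0.63), Ppara (-3.05 ± 0.22) and Hnf4a (-2.82 ± 0.79) encode transcription factors of hepatocytes. Creb3l3, Nr5a2, Cebpa, Rxra and Nr1d1 were also called, at -2.48 to -0.65. Srebf1 was -0.67 ± 0.10 in spleen and 0.52 ± 0.08 in liver and was called in neither. In liver the largest values that missed the call were A1cf (0.60 ± 0.56), Abca7 (-0.60 ± 0.03), Abcg1 and Apobr (-0.57 each) and Foxa2 (0.53 ± 0.14).

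The 5 Apob oligos shown above did not give the same ratio in liver. Oligos 1, 2 and 3 lay above 0 on both arrays, at 0.25 and 0.09, 0.32 and 0.28, and 0.29 and 0.24. Oligos 4 and 5 lay below 0 on both arrays, at -0.26 and -0.18, and -0.15 and -0.23. The internal oligos and the 3′ oligos therefore did not overlap, and none of the 5 passed 1.5-fold.

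The distance from oligo 5 was 17712 bases for oligo 1, 8484 for oligo 2, 4453 for oligo 3 and 60 for oligo 4. The ratio did not follow distance evenly, and the highest value was that of oligo 2. The internal oligos also gave weaker spots, which depends on the oligo as well as on the transcript. The mean log2 signal over all 8 channels was 10.10, 12.20 and 9.30 for oligos 1 to 3, and 13.50 and 13.47 for oligos 4 and 5. Position and brightness therefore cannot be told apart among these oligos. The order was kept under each of 4 other scalings, in that the 3 internal oligos had higher means than both 3′ oligos, but with median centring oligos 4 and 5 were themselves above 0 (0.16 and 0.18), and on array 1 oligos 1 and 3 (0.85 and 0.75) lay below them (1.02 and 1.11). With processed signals oligos 4 and 5 were above 0 on array 2 (0.08 and 0.03).

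Across the array, 2966 genes had a measured oligo 1000 to 20000 bases upstream of their last one in liver. For this comparison, measured meant well above background in both channels of both arrays, and distances were taken along the genome. The difference between the upstream oligo and the 3′-most one had a median of 0.01, with an interquartile range of -0.09 to 0.10, and for Apob it was 0.36. The medians of arrays 1 and 2 were -0.05 and 0.09. The 5 oligos of Apob spanned 0.51 on the log2 scale, and 3.33% of 1501 genes with at least 3 measured oligos spanned as much. These genes were not matched to Apob in the number or brightness of oligos, and a span tends to widen with more oligos. In spleen the internal oligos also gave smaller ratios than the 3′ oligos, with the limits from background in oligos 1 and 3 given above.

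**Figure D4:**
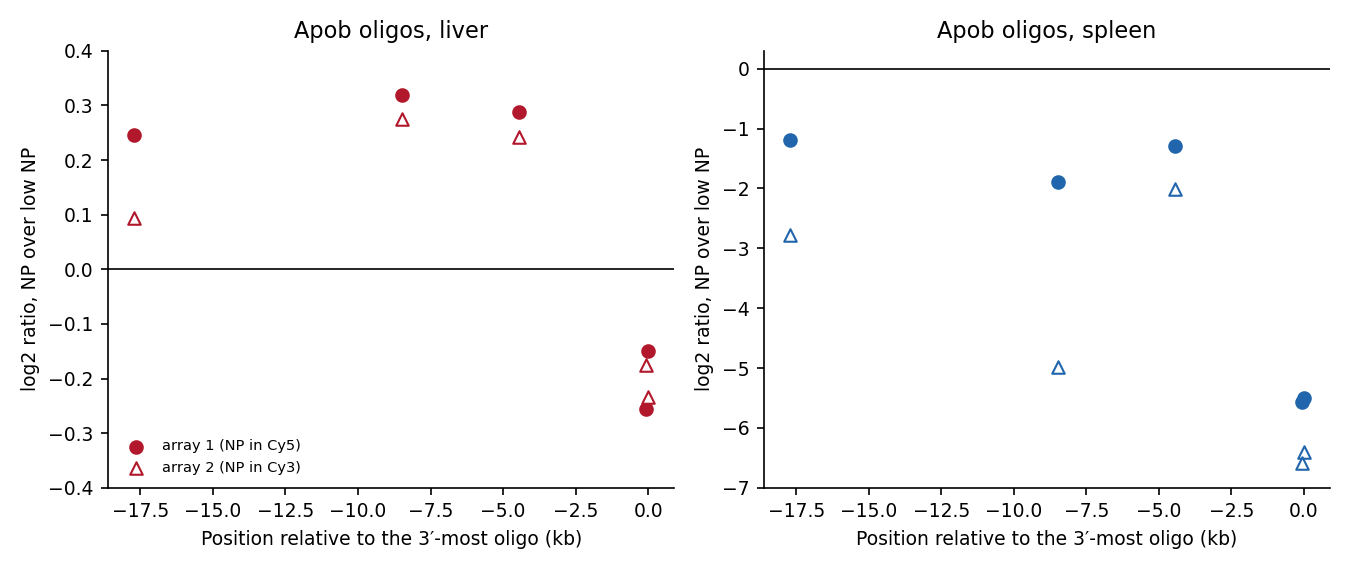
Log2 ratio of NP over low NP for the 5 Apob oligos against position relative to the 3′-most oligo in kb, in liver (left) and spleen (right), with filled circles for array 1 and open triangles for array 2. In liver the 3 internal oligos lie between 0.09 and 0.32 and the 3′ oligos between -0.26 and -0.15. In spleen all lie below 0, and oligo 3 was not well above background in NP spleen.

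Genes with patterns most like the apolipoproteins were ranked by the root-mean-square difference of centred log2 signals over the 8 channels, among 16502 genes. This measure uses the same channels as the ratios above and is a description. Closest to the mean profile of the 8 members with no saturated spot were Proc (0.08), Slc27a5 (0.15), Urah (0.15), Gnmt (0.15) and Cyp2e1 (0.16), with spleen ratios of -5.17 to -4.51. Among the members, Apoa1 was closest to that profile (0.18), followed by Apom (0.24), Apoa5 (0.25), Apoc3 (0.30), Apoa2 (0.48), Apob (0.67), Apoh (1.10) and Apoa4 (1.48). Apoc1 (0.95) and Apoe (2.02), which were left out of the mean, were compared with it too.

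For Apob alone, the closest genes were Cyp2c23 (0.20), Slc27a2 (0.21), Pck1, Kng1 and Pzp (0.22 each). For Apoe alone, whose profile holds saturated signals in both liver Cy5 channels, so that the distances are approximate, the closest were Selenop (0.31), C3 (0.42) and Sod1 (0.44), beside a pair of oligos with no gene symbol (0.43 each). Selenop encodes a plasma selenoprotein and C3 a complement component, and their spleen ratios were -1.60 and -1.07, against -2.02 for Apoe.

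Because the members moved together in spleen, the 250 bases before their transcription starts were searched in RefSeq promoter sequences of GRCm38.p6, which held 12 start sites of 8 members. The motif CAAAGNNCA is a form of the site of hepatocyte nuclear factor 4. The TATA box was searched as TATAAA. The E-box was searched as CACGTG. The GC box was searched as GGGCGG. Each was sought on both strands, and no matches overlap in the windows shown. CAAAGNNCA was found for 3 of 8 genes (Apoa4, Apob and Apoh) and in 3 of 12 windows, against 5.49% of 32851 promoters of the same length. TATAAA was found for 4 of 8 genes and in 5 of 12 windows, against 12.4% of all promoters. CACGTG was found for 1 gene and in 2 windows (6.02%), and GGGCGG for 0 genes and in 0 windows (32.7%). The percentages are per promoter, as the window counts are, but the 12 windows are not all separate. The 2 windows of Apoa5 overlap, and the same CACGTG and the same TATAAA were counted in both. The 3 windows with CAAAGNNCA are shown with matches to any of the motifs in capitals. A match is only a match of letters, and no binding was measured here.

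Apoa4 promoter, + strand, chr9:46240594-46240843: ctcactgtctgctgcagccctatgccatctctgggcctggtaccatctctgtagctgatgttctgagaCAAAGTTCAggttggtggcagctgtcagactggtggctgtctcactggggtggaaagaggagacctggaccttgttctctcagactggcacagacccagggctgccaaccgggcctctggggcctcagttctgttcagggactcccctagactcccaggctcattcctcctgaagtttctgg
Apob promoter, + strand, chr12:7977427-7977676: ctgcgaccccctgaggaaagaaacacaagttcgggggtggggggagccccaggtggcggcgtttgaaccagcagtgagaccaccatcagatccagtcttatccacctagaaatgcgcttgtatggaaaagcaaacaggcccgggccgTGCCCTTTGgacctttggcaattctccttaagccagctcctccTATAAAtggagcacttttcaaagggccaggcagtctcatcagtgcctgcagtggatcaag
Apoh promoter, + strand, chr11:108395047-108395296: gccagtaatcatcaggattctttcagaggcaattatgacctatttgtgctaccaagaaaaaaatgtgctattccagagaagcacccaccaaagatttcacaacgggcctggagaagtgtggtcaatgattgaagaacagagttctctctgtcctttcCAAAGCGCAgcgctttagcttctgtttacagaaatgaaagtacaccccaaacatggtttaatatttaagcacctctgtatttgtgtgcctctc

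Counted from the transcription start, the match to CAAAGNNCA begins at base -182 in Apoa4, at -103 in Apob, where it lies on the opposite strand, and at -93 in Apoh. In Apob the match to TATAAA begins at -60. The spleen ratios of these 3 genes were -1.29, -6.08 and -7.67.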

How the data were processed

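Each tissue had 2 arrays of 2 colours on 1 slide. Per the file headers, the deposited scanner files hold spot intensity (mean foreground, median background) and processed intensity per dye, a log10 ratio of Cy5 over Cy3, and flags, written by Agilent Feature Extraction, whose version is 9.5.3.1 per the submitters' processing notes. The deposited value table holds log10 ratios, and no source used here says how the authors made them. Correlations of its columns with the scanner ratio were -0.992, 0.991, -0.993 and 0.998, so its direction is low NP over NP. Its column medians were 0.03, -0.07, -0.01 and -0.04.

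Background was corrected by normexp (offset 50) and ratios were normalized by loess in limma 3.58.1 (R 4.3.3), leaving out control spots and 109 to 180 outlier spots per array. Signals per channel were then scaled by Aquantile. Spots of an oligo were averaged, and the brightest oligo stands for a gene. Names came from RefSeq genes of GRCm38.p6 (22951 oligos by accession, 6659 by symbol, 3109 by synonym; 8455 kept the file's name). Python 3.11.15, numpy 2.4.6, pandas 2.3.3 and matplotlib 3.10.9 were used. The call rule was run on simulated data with changes well above the limit. That run held no dye bias, saturation or background, so it did not test the calls against them. Other background corrections, scalings, filters, oligo choices, fold limits and each array alone were tried. The text names all members and, from each pathway list, the called genes and up to 4 others with the largest absolute ratio in a tissue, except some genes that are not reported here. Members and lists were chosen with earlier results of these data known.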

Additional observations from a re-analysis of the deposited data

Results flagged for a closer look

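These genes and oligos lay on opposite sides of 0 in the tissues on every array, which is why they are listed. The difference between the tissues was not tested. Only the members, the Apob oligos and up to 4 genes per pathway list with the largest liver ratios were checked, so the list is not complete. Other pathway genes met the condition as well, among them Nr1h4 (liver 0.31 and 0.10, spleen -2.84 and -4.31) and Hnf4a (liver 0.09 and 0.31, spleen -2.02 and -3.61). Values are the liver log2 ratio minus the spleen log2 ratio. The internal Apob oligos 1, 2 and 3 differed by 2.16, 3.73 and 1.92, with liver means of 0.17, 0.30 and 0.26. Higher in liver and lower in spleen with NP were also Foxa2 (4.37), Apol7a (4.17), A1cf (4.03), Lsr (2.93), Nr5a2 (2.33), Srebf1 (1.19), Apoo (0.89), Nr2f2 (0.57), Vldlr (0.53) and Apool (0.50). The reverse held for Abca7 (-0.91) and Apobr (-0.77). Liver ratios of these genes were within 1.5-fold on at least 1 array. A1cf and Apob oligo 3 were not well above background in NP spleen on either array, so their values rest on weak signals there. None of the 10 apolipoprotein genes, by its brightest oligo, met this condition.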

How the results depend on the processing

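In spleen, 8 to 10 apolipoproteins were called lower under every alternative, and none higher. The count of 8 leaves out Apoc1 and Apoe, which have no oligo without a saturated spot. The median spleen ratio was -4.29 with the mean over all oligos of a gene. In liver 0 members were called under the alternatives that used both arrays. Array 1 alone gave 3 members higher (Apoc1, Apoe and Apoh), and array 2 alone gave 4 lower (those and Apoa2). The liver median was 0.28 with median centring, and the cause was not tested. Called liver pathway genes were 3 without background correction, 2 with processed signals and 7 on either array alone. The median share of NP liver signal in low-NP spleen was 25.2% without background correction, 35.2% with processed signals, 23.7% with the mean over all oligos and 27.0% in Cy5 alone. Ratios between arrays within 1 dye, added after seeing the data, gave spleen medians of -5.73 in Cy3 and -4.44 in Cy5, and liver medians of -0.14 and -0.07. They split the same values by dye and are no separate check. No paired analysis was possible because the results come from no test and the numbers in the labels are those of the dye orientations. Saturation in Cy5 limits Apoc1 and Apoe in liver, and background limits Apoa4 in NP spleen. The fold sizes of Apob and Apoh in spleen rest on weak NP signals on array 2.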
